A study of Rattus norvegicus with 9 samples.

Results

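The axon guidance ligands and receptors described here are the genes whose symbols name a semaphorin of classes 3 to 7, a plexin numbered 1 to 3, a neuropilin, an ephrin, an Eph receptor, a Slit, a Robo, a netrin, an Unc5 receptor or reelin. The rule used names and no measured value, but it was chosen with earlier results of these data known. It took 65 of the 19085 genes in the deposited table, 36 of them ligands and 29 receptors. Primary osteoblasts, the cells that build bone, were isolated from the calvaria of male Sprague-Dawley rats aged 24 hours and used at first passage. All 3 groups were kept for 7 days in the same osteogenic induction medium, which held fetal bovine serum, β-glycerophosphate, ascorbic acid and dexamethasone. Control received this medium alone, Thrombin received it with 20 U/mL of the coagulation protease thrombin, and PD03 received the thrombin together with 0.1 µM PD0325901, which inhibits the kinase MEK upstream of Erk1/2. Each group had 3 libraries, described by the study as independent samples, and no source used here says whether they came from separate rats, so the p-values measure the spread between these samples, which may be technical. PD03 was not given without thrombin in these libraries, and the labels name the knee as tissue where their own protocol names the calvaria.

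Guidance cues were named for steering growing axons. A ligand on a neighbouring cell or in the matrix binds a receptor on the moving cell and shifts its cytoskeleton and adhesion, so that the cell turns towards or away from the source. Bone uses the same families. Osteoblast Sema3a restrains osteoclast formation through neuropilin 1 and plexin A receptors, Sema4d from osteoclasts acts on plexin B1 to hold back bone formation, and ephrin-B2 on osteoclasts and EphB4 on osteoblasts signal in both directions where the cells touch. Ephrin-B1 is needed for normal closure of the skull's sutures, and Slit3 has been tied to osteoblast migration and to the vessels of growing bone.

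Of the 65 genes, 53 had enough counts to be tested and 12 did not, the highest count of any of the 12 in a library being 18. Expression is given as CPM, counts per 1000000 after TMM scaling between libraries, and a gene was called higher or lower with an adjusted p under 0.05 (edgeR's quasi-likelihood test, Benjamini-Hochberg over 13256 genes) and an absolute log2 fold change above 0.58. Total counts were 15447832 to 19841468 per library, and the 65 genes took 0.43% to 0.438% of the counts in Control, 0.361% to 0.373% in Thrombin and 0.385% to 0.389% in PD03. In cultured cells, fewer cells of a type and less RNA per cell cannot be told apart. Of the osteoblast markers, Col1a1 and Runx2 were well expressed, at 47443 and 42.8 CPM in Control, and Sp7 was at 4.25 CPM. Alkaline phosphatase, Alpl, averaged only 1.67 CPM in Control, 0.345 CPM in Thrombin and 3.11 CPM in PD03, while the late markers Bglap (0.142 CPM in Control), Ibsp (0.0211 CPM) and Dmp1 (0.144 CPM) were close to 0, so several defining markers of osteoblasts were nearly absent. Of the 8 osteoblast genes tested of 12 listed, Thrombin had Spp1 higher (log2 change 1.54) and Alpl lower (-2.24) than Control. PD03 had Alpl, Col1a1 and Col1a2 higher (3.14, 0.75 and 0.75) and Spp1 and Runx2 lower (-1.80 and -0.67) than Thrombin, and Alpl and Col1a1 higher than Control. All 7 genes of a list that MEK signalling is known to drive, among them Dusp6 and Egr1, were called lower in PD03 than in Thrombin, by log2 changes of -3.70 to -0.61. The same 7 were lower in PD03 than in Control (median -1.72), and in Thrombin against Control 1 was called higher (Phlda1, 0.98) and 5 of the 7 had log2 changes below 0 (median -0.31).

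Guidance genes were called both ways with thrombin, and each of those was called in the opposite direction from Thrombin to PD03. Against Control, Thrombin had 5 guidance genes higher and 8 lower, which is 24.5% of the 53 tested, where 8.06% of all tested genes were called (2.62% higher, 5.44% lower). Against Thrombin, PD03 had 14 higher and 8 lower, 41.5% of the 53, where 15.9% of all tested genes were called (9.61% higher, 6.31% lower). Both comparisons use the same Thrombin libraries, so opposite signs in the pair are partly built in. Among the guidance genes, 8 fell with thrombin and rose with PD03 (3.69% of all tested genes did). Another 5 rose with thrombin and fell with PD03 (1.64% of all did). Such reversal was common: over all tested genes, it held for 489 of the 721 called lower with thrombin and 217 of the 347 called higher. Against Control, PD03 had 6 higher and 2 lower, 15.1% of the 53, where 8.97% of all tested genes were called (4.9% higher, 4.07% lower). By the adjusted p alone, 30, 36 and 27 of the 53 passed in the 3 comparisons, where 28.7%, 49.8% and 39.9% of all tested genes did. The median log2 fold change of the 53 was -0.12, 0.02 and -0.02 in the 3 comparisons, against -0.01, 0.01 and 0.00 over all genes. In all, 22 were called somewhere, 13 of the 31 tested ligands and 9 of the 22 tested receptors, and 20.2% of all tested genes were.

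**Figure D1:**
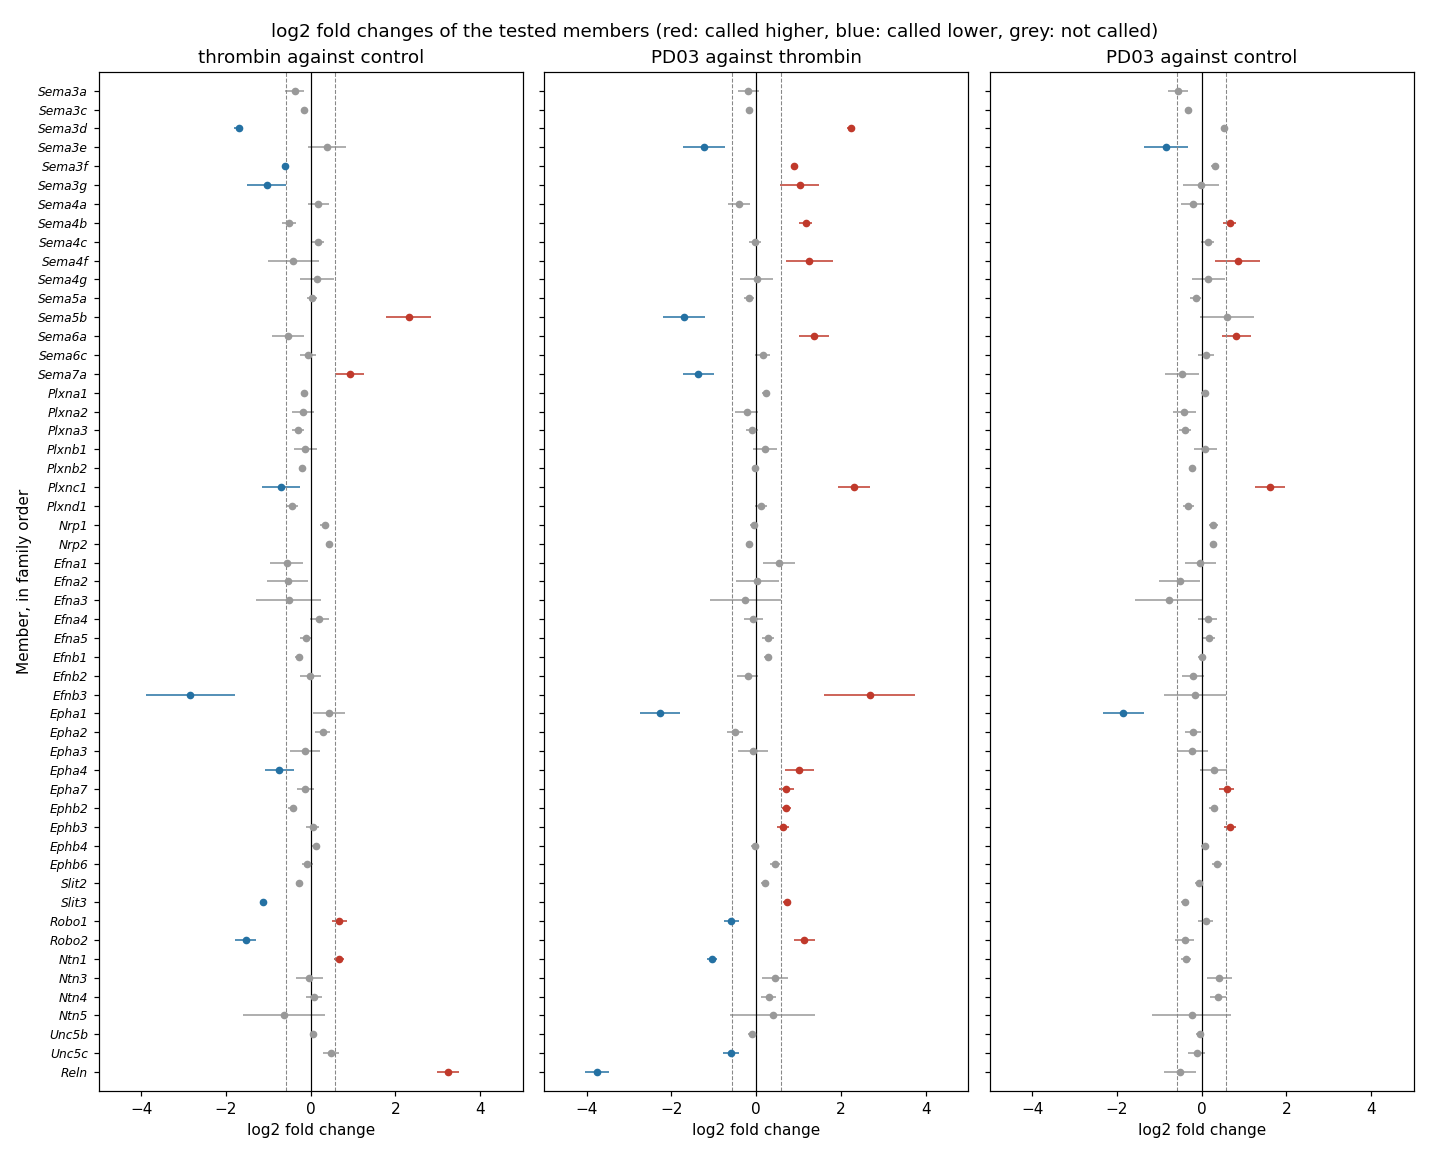
log2 fold change (x axis) of the 53 tested guidance genes (y axis, in family order) in the 3 comparisons; points are edgeR estimates, bars their 95% confidence intervals, and dashed lines mark 0.58 in either direction. Red points (higher) and blue points (lower) trade places between the left and middle panels, and 8 coloured points stand in the right panel, where PD03 is set against Control.

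Because levels of different genes can be compared only per length of transcript, their order was read from the deposited FPKM (fragments scaled to transcript length and library total). Slit3 was the most abundant of the 65 in Control and PD03, at a mean FPKM of 156 in Control, 71.0 in Thrombin and 109 in PD03. Next in Control came the receptor Plxnb2 at 94.9 FPKM and the secreted semaphorin Sema3c at 93.6 FPKM, whose ranges overlapped (92.2 to 96.5 and 91.2 to 96.0). In Thrombin, Sema3c at 83.1 FPKM and Plxnb2 at 81.8 FPKM stood above Slit3, which had fallen below both. Sema3f (53.0 FPKM in Control), Nrp2 (42.7), Slit2 (39.0), Ephb4 (33.6), Efnb1 (32.2), Unc5b (28.6) and Sema3d (26.5) followed, and the rest lay under 24.0 FPKM in Control. The cells therefore expressed mainly secreted class 3 semaphorins, Slits, plexin B2, neuropilin 2, EphB receptors, ephrin-B1 and Unc5b.

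By family, summed FPKM of the Slits was 195 ± 2.74 (SD, n = 3) in Control, 103 ± 3.50 in Thrombin and 143 ± 2.66 in PD03. The secreted semaphorins summed to 177 ± 4.32, 129 ± 2.00 and 168 ± 1.57 FPKM in the same order, while the transmembrane semaphorins summed to 30.6 ± 0.21, 31.1 ± 1.90 and 31.8 ± 2.28. Slits and secreted semaphorins thus had less RNA in Thrombin than in Control, and the sums of the transmembrane semaphorins lay within their spread. Plexins summed to 128 ± 2.22 FPKM in Control, 109 ± 2.06 in Thrombin and 104 ± 0.55 in PD03, and neuropilins to 58.5 ± 1.77, 76.7 ± 0.95 and 65.0 ± 1.62. Robo receptors stood near 4 FPKM in every group (4.14 ± 0.20, 4.54 ± 0.48 and 3.62 ± 0.24), far under their Slit ligands. These sums are descriptions with no test, and deposited FPKM puts PD03 lower than TMM does. Over all tested genes, the median log2 difference of PD03 from Control was -0.115 by FPKM with 0.1 added and -0.00395 by TMM.

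**Figure D2:**
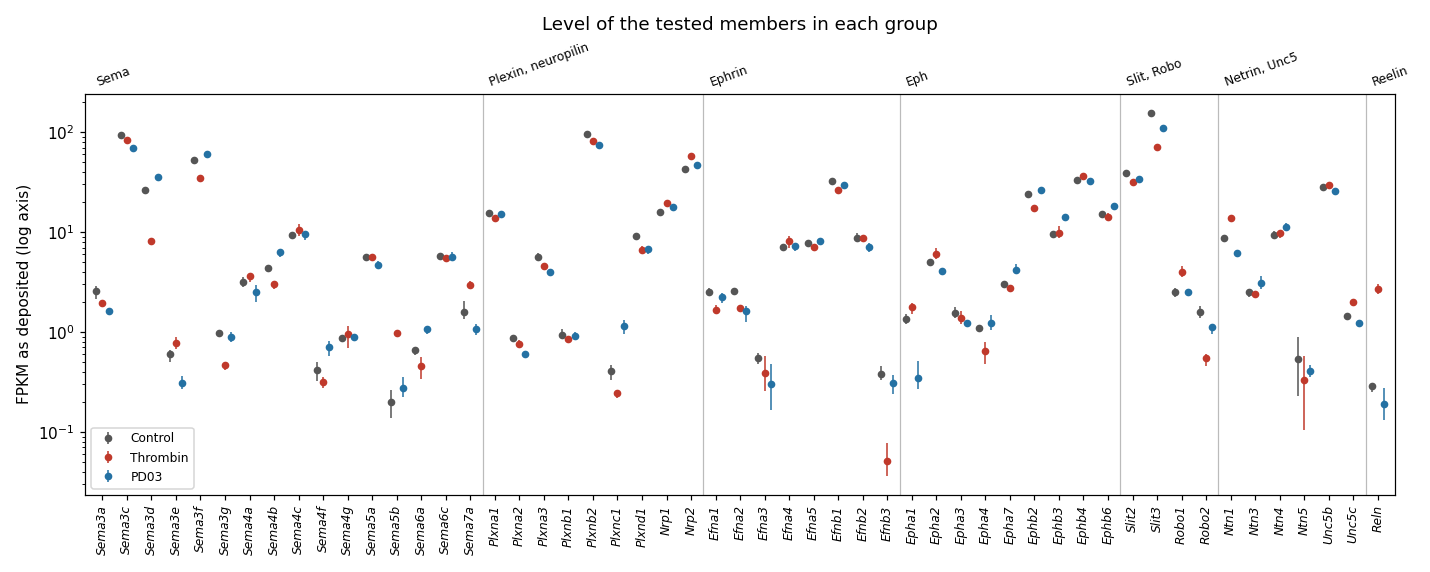
Deposited FPKM (y axis, log scale) of the 53 tested guidance genes (x axis, by family) in Control, Thrombin and PD03; points are means of 3 libraries and bars run from the lowest to the highest library. Slit3, Plxnb2, Sema3c, Sema3f and Nrp2 stand highest, and Reln, Sema3d, Efnb3, Sema5b, Plxnc1 and Epha1 show the widest gaps between groups.

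Promoters are shown for Reln (ENSRNOG00000021441), Sema3d and Slit3, the gene with the largest rise under thrombin and the abundant ligands with the largest falls, because they carry the opposite responses. Each is the stretch of 250 bases before the annotated start, from RefSeq on the rat assembly GRCr8, read 5′ to 3′ on the gene's strand, with the GC box letters GGGCGG, or their reverse complement, in capitals. The Reln stretch is chr4:13628318-13628567 on the plus strand, that of Sema3d is chr4:23460972-23461221 on the minus strand, and that of Slit3 is chr10:20075679-20075928 on the plus strand.
Reln: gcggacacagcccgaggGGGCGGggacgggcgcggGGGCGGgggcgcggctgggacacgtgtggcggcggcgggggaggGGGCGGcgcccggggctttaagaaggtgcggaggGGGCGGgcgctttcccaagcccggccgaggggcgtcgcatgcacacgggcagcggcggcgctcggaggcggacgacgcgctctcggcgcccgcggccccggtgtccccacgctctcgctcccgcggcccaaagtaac
Sema3d: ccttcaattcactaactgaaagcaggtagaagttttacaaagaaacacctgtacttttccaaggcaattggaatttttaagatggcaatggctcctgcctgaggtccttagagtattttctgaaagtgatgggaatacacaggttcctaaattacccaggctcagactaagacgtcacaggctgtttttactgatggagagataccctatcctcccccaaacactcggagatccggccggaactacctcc
Slit3: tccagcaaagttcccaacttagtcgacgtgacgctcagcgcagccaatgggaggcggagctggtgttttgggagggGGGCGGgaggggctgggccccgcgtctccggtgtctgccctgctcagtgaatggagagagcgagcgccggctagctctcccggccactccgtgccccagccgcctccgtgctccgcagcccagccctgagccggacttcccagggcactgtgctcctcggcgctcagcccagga
The stretch before Reln is 80.0% G and C with 41 CpG pairs and 4 GC boxes, that before Slit3 69.2% with 20 CpG pairs and 1 GC box, and that before Sema3d 44.8% with 4 CpG pairs and none. One promoter window of 300 bases (250 before and 50 after the start) was found for 50 of the 65 genes and 16 of the 22 called ones. GC boxes were in 29 of the 50 windows and in 33.1% of all 33469 promoter windows in the same table. Of the letters searched on both strands for factors that act downstream of Erk1/2, AP-1 (TGANTCA) was in 1 of the 50 windows, that of untested Epha10 (7.33% of all promoters). For ETS factors only the exact letters CCGGAAG were searched, which are longer than the core these factors bind. They were in 1 window, that of Plxnb1 (8.75% of all). The EGR letters (GTGGGCG) were in 11 of the 50 (22.0%, against 7.12% of all promoters), among the called genes those of Sema4b and Ephb3, and the CRE letters (TGACGTCA) in that of Epha2 alone (1.83% of all). Neither TGANTCA nor CCGGAAG stood in the 16 windows of called genes, which says only that these letters are not in these windows, and overlaps between motifs were not removed.

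Among the 7 secreted semaphorins, which signal mostly through neuropilin and plexin complexes, 6 were tested. Thrombin had 3 of them lower and none higher than Control, PD03 had 3 higher and 1 lower than Thrombin, and PD03 had 1 lower than Control. Of all tested genes, 5.44% were lower and 2.62% higher in Thrombin than in Control. From Thrombin to PD03, 9.61% were higher and 6.31% lower, and 4.07% were lower in PD03 than in Control. Sema3d, a ligand of neuropilin 1 and plexin D1 known from vessel and heart patterning, stood at 133, 136 and 130 CPM in the Control libraries, at 40.7, 41.4 and 40.5 CPM in Thrombin and at 186, 192 and 201 CPM in PD03. The 3 groups did not overlap, and every PD03 library was above every Control library. The log2 fold change was -1.70 (SE 0.05, adjusted p = 1.5e-28, edgeR) for Thrombin against Control and 2.24 (SE 0.05, adjusted p = 1.3e-33) for PD03 against Thrombin. Against Control, PD03 was higher by a log2 change of 0.53 (adjusted p = 9.4e-14), which stays under the fold threshold.

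Sema3f, the neuropilin 2 ligand that repels axons and vessels, moved in the same order with a smaller step. Its libraries read 181, 182 and 174 CPM in Control, 123, 115 and 117 CPM in Thrombin and 233, 212 and 218 CPM in PD03. The groups were again apart, with log2 changes of -0.60 (adjusted p = 4.6e-15) and 0.90 (adjusted p = 2.2e-21). The fall with thrombin lies close to the threshold and was -0.576 without Thrombin replicate 2, no longer called. Sema3g, which endothelial cells express and which also binds neuropilin 2, was low, at 3.10, 3.73 and 3.41 CPM in Control, 1.72, 1.48 and 1.75 CPM in Thrombin, and 3.02, 3.30 and 3.80 CPM in PD03. All Thrombin libraries lay under all others (log2 change -1.04, adjusted p = 0.00044), and PD03 overlapped Control after a rise of 1.03 (adjusted p = 0.00024).

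Sema3e, which binds plexin D1 directly without a neuropilin, went the other way. It was at 2.83, 2.21 and 2.84 CPM in Control, at 2.97, 3.89 and 3.44 CPM in Thrombin and at 1.27, 1.42 and 1.71 CPM in PD03. The PD03 libraries were the lowest, by a log2 change of -1.23 against Thrombin (SE 0.24, adjusted p = 4.3e-05) and -0.84 against Control (SE 0.25, adjusted p = 0.0067). Thrombin differed from Control by 0.39 with a 95% interval of -0.06 to 0.83, which was not called.

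Sema3a, the osteoblast cue best known for protecting bone, was called in none of the comparisons. It read 14.1, 11.6 and 15.6 CPM in Control, 10.7, 10.1 and 11.0 CPM in Thrombin and 9.27, 9.65 and 9.12 CPM in PD03. Each group lay under the one before it, so PD03 did not bring Sema3a back towards Control: the log2 differences were -0.38 (95% interval -0.61 to -0.15, adjusted p = 0.0096) for Thrombin against Control and -0.56 (95% interval -0.80 to -0.32, adjusted p = 0.00012) for PD03 against Control. The last of these passes the fold threshold without Control replicate 2 (-0.68) or PD03 replicate 2 (-0.59), with library totals as the scaling (-0.68) and on the log2(FPKM + 0.1) scale (-0.63). Sema3c, the most abundant semaphorin, showed small steps of the same kind, from 461, 457 and 445 CPM in Control through 405, 401 and 419 CPM in Thrombin to 357, 367 and 370 CPM in PD03, and the log2 difference of PD03 from Control was -0.32. Sema3b was not tested, with counts of 3, 1 and 1 in Control, 1, 1 and 0 in Thrombin, and 1, 3 and 7 in PD03.

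Of the 12 transmembrane semaphorins, classes 4 to 6, which act over short range through plexins, 9 were tested. Thrombin had 1 higher than Control and none lower, and PD03 had 3 higher and 1 lower than Thrombin and 3 higher than Control. In the same order, 2.62% and 5.44%, 9.61% and 6.31%, and 4.9% of all tested genes were called. Sema5b, a class 5 semaphorin with thrombospondin repeats, was the one that rose with thrombin, with counts of 12, 15 and 20 in Control, 85, 83 and 77 in Thrombin, and 22, 20 and 30 in PD03. The Thrombin libraries stood alone (log2 change 2.31, SE 0.26, adjusted p = 2e-09), and PD03 fell from them by 1.72 on the log2 scale (adjusted p = 1.2e-07) and overlapped Control.

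Sema4b, Sema4f and Sema6a were higher in PD03 than in either other group. Sema4b, a class 4 semaphorin, read 29.8, 30.4 and 33.0 CPM in Control, 22.1, 23.7 and 19.5 CPM in Thrombin and 53.1, 49.9 and 44.2 CPM in PD03. Its log2 difference was 1.17 (adjusted p = 8.4e-17) from Thrombin and 0.66 (adjusted p = 6.6e-10) from Control, while the fall with thrombin, -0.51 (adjusted p = 2.5e-06), missed the fold threshold. Sema6a, a ligand of plexins A2 and A4 that can also serve as a receptor, read 4.08, 4.92 and 4.80 CPM in Control, 3.21, 2.36 and 3.96 CPM in Thrombin, and 8.53, 8.61 and 7.16 CPM in PD03. The PD03 libraries were above all others, by 1.35 (adjusted p = 1.4e-08) and 0.82 (adjusted p = 8.4e-05). Without Control replicate 1 or Thrombin replicate 3, the fall of Sema6a with thrombin was called too, at -0.62 and -0.72 against -0.53 with all libraries. Sema4f, one of the smaller class 4 members, was near the detection limit at 1.90, 1.26 and 1.71 CPM in Control, 1.07, 1.21 and 1.40 CPM in Thrombin and 3.07, 3.37 and 2.39 CPM in PD03. Its PD03 libraries were also the highest, with log2 differences of 1.26 (adjusted p = 0.00017) and 0.85 (adjusted p = 0.0089), the latter not called without Control replicate 2 (adjusted p = 0.057).

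Sema4d and Sema6d, both of which have roles in the exchange between osteoblasts and osteoclasts, were too low to test. The counts of Sema4d were 6, 1 and 1 in Control, 1, 3 and 1 in Thrombin, and 5, 1 and 5 in PD03, and those of Sema6d 5, 1 and 3, then 0, 1 and 8, then 4, 6 and 6. At these counts a difference between groups was not detectable. The other transmembrane semaphorins tested (Sema4a, Sema4c, Sema4g, Sema5a and Sema6c) were not called, with log2 differences between -0.40 and 0.18 in the 3 comparisons, and Sema6b was not tested. Sema5a and Sema6a overlap a second protein-coding gene model on GRCr8, so some of their reads could belong to a neighbour.

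Sema7a, the semaphorin held in the membrane by a lipid anchor, binds integrins and plexin C1. It read 3.43, 3.47 and 5.24 CPM in Control, 8.39, 7.29 and 7.17 CPM in Thrombin and 3.28, 2.91 and 2.57 CPM in PD03. The Thrombin libraries were the highest (log2 change 0.92, SE 0.17, adjusted p = 4.7e-05), and PD03 fell from them by 1.37 on the log2 scale (adjusted p = 2.2e-08) to just under the Control libraries. Its receptor Plxnc1 had the reverse pattern, at 2.39, 3.47 and 3.16 CPM in Control, 1.90, 1.97 and 1.63 CPM in Thrombin, and 9.16, 10.6 and 7.65 CPM in PD03. PD03 libraries were the highest for Plxnc1, by log2 changes of 2.31 (SE 0.19, adjusted p = 1.4e-13) from Thrombin and 1.61 (SE 0.18, adjusted p = 6.3e-10) from Control, the largest rise above Control among the 53. Its fall with thrombin, -0.70 (adjusted p = 0.015), was lost without Control replicate 2, Control replicate 3 or Thrombin replicate 3 (adjusted p = 0.091, 0.051 and 0.067). It was also lost by limma on the log2(FPKM + 0.1) and log2(FPKM + 1) scales (adjusted p = 0.054 and 0.12). From Thrombin to PD03, the ligand thus fell and the receptor rose in the same cultures.

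Plexin C1 was the only called gene among the 7 plexins and 2 neuropilins tested, where 20.2% of all tested genes were called in any comparison. All 7 tested plexins had a log2 change below 0 with thrombin, from -0.70 to -0.12, as had 6775 of all 13256 tested genes. The 95% intervals of Plxna2 (-0.44 to 0.08) and Plxnb1 (-0.40 to 0.15) held 0. Plxnb2, the most abundant receptor here and one that class 4 semaphorins bind, read 571, 608 and 604 CPM in Control, 526, 515 and 515 CPM in Thrombin and 511, 513 and 510 CPM in PD03. Control libraries were the highest by a small step (log2 change -0.20 with thrombin, 95% interval -0.26 to -0.13), and PD03 differed from Thrombin by -0.02 (95% interval -0.09 to 0.05). Plxnb1, the receptor through which Sema4d acts on osteoblasts, read 7.29, 8.78 and 6.95 CPM, then 7.32, 6.85 and 6.94 CPM, then 8.00, 7.45 and 8.88 CPM in Control, Thrombin and PD03, with Control overlapping both other groups. Plxna1, the osteoclast receptor of Sema6d, read 185, 187 and 180 CPM in Control, 169, 166 and 163 CPM in Thrombin and 196, 190 and 195 CPM in PD03, a fall of -0.15 and a rise of 0.22 on the log2 scale. The related Plxna2 read 8.92, 8.84 and 8.21 CPM, 7.08, 8.39 and 7.46 CPM, and 6.57, 6.61 and 6.43 CPM in the same order, with PD03 under Control (log2 change -0.41, adjusted p = 0.013). Plxna3 and Plxnd1 were not called, with log2 differences from Control of -0.30 and -0.44 in Thrombin, and Plxnb3 was not tested.

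Both neuropilins, the co-receptors that bind class 3 semaphorins and VEGF, had more RNA with thrombin, under the fold threshold. Nrp2 read 320, 312 and 317 CPM in Control, 424, 424 and 436 CPM in Thrombin and 368, 384 and 389 CPM in PD03. Its groups were all apart (log2 change 0.44, 95% interval 0.36 to 0.51, then -0.17, 95% interval -0.24 to -0.10), so PD03 stayed above Control. Nrp1 read 80.2, 73.7 and 74.3 CPM, then 93.6, 96.8 and 96.4 CPM, then 90.2, 94.2 and 92.4 CPM. Thrombin and PD03 overlapped, both above Control, and their log2 difference for Nrp1 was -0.05 (95% interval -0.15 to 0.05). Under thrombin the cultures therefore had less RNA of the ligands Sema3d and Sema3f and more of the neuropilins.

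**Figure D3:**
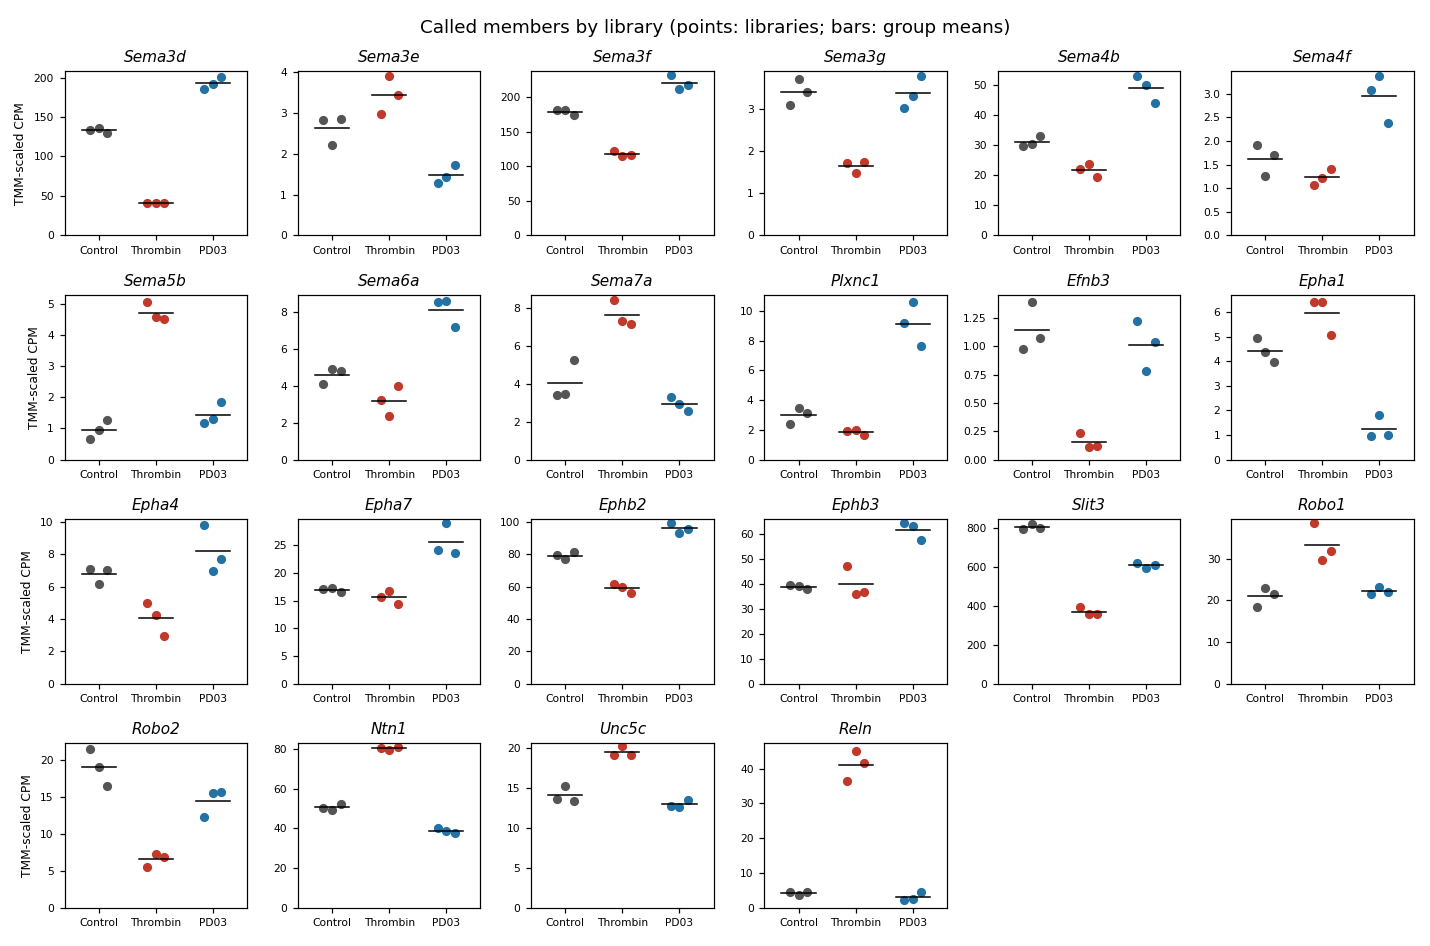
TMM-scaled CPM (y axes, each from 0) of the 22 called guidance genes in every library; points are libraries and bars are group means of 3. Thrombin lies apart from both other groups for Sema3d, Slit3, Robo2, Ntn1, Sema5b and Reln, and PD03 lies apart from both for Plxnc1, Epha1, Sema4b, Sema6a and Ephb3.

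Ephrins and Eph receptors signal between touching cells, in both directions. Of the 8 ephrins, all tested, 1 was called, and of the 12 Eph receptors 9 were tested, with 1 lower in Thrombin than in Control and 4 higher and 1 lower in PD03 than in Thrombin. Over all tested genes, the shares were 5.44% lower with thrombin, and 9.61% higher and 6.31% lower from Thrombin to PD03. In any of the 3 comparisons, 20.2% of all tested genes were called. Ephb2, a receptor for the B ephrins, read 79.5, 77.1 and 81.4 CPM in Control, 61.5, 59.8 and 55.8 CPM in Thrombin and 99.8, 93.5 and 95.6 CPM in PD03. Its 3 groups were apart, the fall with thrombin (-0.43, adjusted p = 1.4e-08) was under the fold threshold, and the rise with PD03 was called (0.71, adjusted p = 3.7e-15). Ephb3, another B receptor, read 39.3, 39.1 and 37.7 CPM, then 47.2, 36.0 and 36.6 CPM, then 64.4, 62.9 and 57.6 CPM. Only PD03 stood apart, by log2 changes of 0.63 (adjusted p = 6.1e-10) from Thrombin and 0.67 (adjusted p = 2.5e-10) from Control. The first of these was under the threshold without Thrombin replicate 2 (0.55) or 3 (0.57), with library totals as the scaling (0.53) and on the log2(FPKM + 0.1) scale (also 0.53). Ephb6, a receptor whose kinase is inactive, was above both other groups in PD03 as well, by 0.45 and 0.37, under the fold threshold.

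Ephb4, the osteoblast side of the ephrin-B2 exchange, did not follow the other B receptors. It read 132, 135 and 135 CPM in Control, 152, 144 and 141 CPM in Thrombin and 150, 138 and 137 CPM in PD03. The treated groups overlapped each other, and the intervals held differences to at most 0.21 on the log2 scale (0.03 to 0.21 for Thrombin against Control, -0.13 to 0.05 for PD03 against Thrombin, -0.01 to 0.17 for PD03 against Control). Its ligand Efnb2 read 9.30, 9.41 and 11.1 CPM, then 9.75, 9.43 and 10.4 CPM, then 7.68, 9.46 and 8.69 CPM. These groups overlapped in all 3 comparisons, and the log2 difference of Thrombin from Control was -0.01 (95% interval -0.25 to 0.24). Ephb4 overlaps the gene Zan on GRCr8.

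Efnb1, the suture ephrin and the most abundant of the 8, read 101, 104 and 100 CPM in Control, 87.4, 82.4 and 83.6 CPM in Thrombin and 104, 99.7 and 103 CPM in PD03. Thrombin was the lowest and PD03 overlapped Control, with steps of -0.27 (adjusted p = 1.5e-05) and 0.28 (adjusted p = 3.5e-06) on the log2 scale, both under the threshold. Efnb3, the ephrin-B known as a midline barrier in the spinal cord, was the called ephrin, on few counts: 18, 22 and 17 in Control, 4, 2 and 2 in Thrombin, and 23, 12 and 17 in PD03. Every Thrombin library was below every other, with log2 changes of -2.84 (SE 0.52, adjusted p = 3e-05) and 2.68 (SE 0.53, adjusted p = 4e-05). Efna2, an ephrin-A that osteoclast-line cells use, read 2.99, 2.72 and 3.03 CPM in Control, 2.08, 1.97 and 1.92 CPM in Thrombin and 2.28, 1.55 and 2.2 CPM in PD03. Control was above both other groups in every library, but neither difference passed the test (adjusted p = 0.083 and 0.078). The difference of PD03 from Control was called with library totals (-0.64, adjusted p = 0.026) and on the log2(FPKM + 0.1) scale (-0.64, adjusted p = 0.0034). The other A ephrins (Efna1, Efna3, Efna4 and Efna5) were not called, with log2 differences between -0.78 and 0.54.

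Within the A receptors, Epha1 had the largest change. Its counts were 91, 69 and 63 in Control, 108, 117 and 87 in Thrombin, and 18, 28 and 16 in PD03. The PD03 libraries were far below the rest, by log2 changes of -2.27 (SE 0.23, adjusted p = 3.3e-11) from Thrombin and -1.85 (SE 0.24, adjusted p = 2.6e-08) from Control, the deepest fall below Control among the 53. Epha1 overlaps the actin regulator Zyx on GRCr8, and Zyx itself had a log2 difference of -0.51 in PD03 against Thrombin and of -0.28 against Control. Epha4, which has been studied in osteoclasts and growth plate cells, read 7.13, 6.19 and 7.01 CPM in Control, 5.00, 4.22 and 2.97 CPM in Thrombin and 9.85, 6.99 and 7.71 CPM in PD03. Thrombin libraries were the lowest (log2 change -0.74, adjusted p = 0.00083, but -0.56 and not called without Thrombin replicate 3), and PD03 rose from them by 1.02 (adjusted p = 2e-06) and overlapped Control.

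Epha7, an A receptor of limb and suture mesenchyme, was level between Control (17.2, 17.3 and 16.5 CPM) and Thrombin (15.6, 16.7 and 14.4 CPM), which overlapped, and stood at 24.2, 29.0 and 23.6 CPM in PD03. It was higher in PD03 than in Thrombin by 0.71 (adjusted p = 1.2e-08) and than in Control by 0.59 (adjusted p = 9.6e-07). The second value sits at the threshold and was not called without Control replicate 3 (0.56), without PD03 replicate 2 (0.48) or by limma voom (0.578). Epha2, the partner of ephrin-A2 in bone, read 21.3, 21.0 and 18.9 CPM in Control, 28.4, 24.3 and 21.7 CPM in Thrombin and 16.3, 19.0 and 17.7 CPM in PD03. Thrombin was the highest group, with steps of 0.28 (adjusted p = 0.016) and -0.49 (adjusted p = 2e-05) that were under the threshold, the second being called with library totals (-0.59). Epha3 was not called (-0.14, -0.08 and -0.22), and Epha5, Epha10 and Ephb1 were not tested.

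Slits are large secreted repellents and Robos their receptors. Of 2 Slits and 2 Robos tested, Slit3, Robo1 and Robo2 were called, where 20.2% of all tested genes were called in any comparison. Slit3 read 796, 825 and 801 CPM in Control, 394, 360 and 360 CPM in Thrombin and 623, 595 and 611 CPM in PD03. The groups were far apart, and PD03 lay between the others: the log2 change was -1.12 with thrombin (SE 0.04, adjusted p = 6e-27), 0.72 from Thrombin to PD03 (SE 0.04, adjusted p = 1.6e-20) and -0.40 from Control to PD03 (95% interval -0.48 to -0.33). Slit2, its close relative, read 321, 327 and 321 CPM, 264, 270 and 269 CPM, and 295, 301 and 326 CPM in the same order. Thrombin was the lowest here too, by a step of -0.27 (adjusted p = 2.6e-07) that was under the threshold, and PD03 overlapped Control.

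The receptors parted. Robo2 read 21.5, 19.0 and 16.5 CPM in Control, 5.53, 7.24 and 6.88 CPM in Thrombin and 12.3, 15.5 and 15.7 CPM in PD03, falling with thrombin by 1.54 on the log2 scale (adjusted p = 1e-13) and rising with PD03 by 1.14 (adjusted p = 4.2e-10). The 3 groups did not overlap, and PD03 stayed below Control. Robo1, to which Slit3 binds in bone cells, read 18.3, 22.9 and 21.5 CPM in Control, 38.5, 29.7 and 31.8 CPM in Thrombin and 21.4, 23.2 and 22.1 CPM in PD03. Thrombin was the highest for Robo1, with log2 changes of 0.68 (adjusted p = 5e-08) and -0.585 (adjusted p = 3.4e-07), both near the threshold and both lost without Thrombin replicate 1 (0.57 and -0.48), and the second also lost without PD03 replicate 1 (-0.56) and by limma voom (-0.576). With thrombin, Robo1 was therefore above Robo2 by more than in Control, at 4.00 against 0.544 FPKM where Control had 2.54 against 1.60 FPKM. Slit1 and Robo3 were not tested, and Robo3 overlaps Robo4 on GRCr8.

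Netrins are laminin-like secreted cues, and the Unc5 family gives the repelling answer to netrin 1. Ntn1, which acts on osteoclast-line cells through Unc5b, read 50.3, 49.1 and 52.2 CPM in Control, 80.5, 79.6 and 80.8 CPM in Thrombin and 40.0, 38.9 and 37.8 CPM in PD03. The groups were apart with little spread, by log2 changes of 0.67 (SE 0.05, adjusted p = 1.6e-13), -1.04 (SE 0.06, adjusted p = 1.1e-19) and -0.38 for PD03 against Control, so PD03 libraries were below Control. Unc5c, a netrin receptor of guidance and migration, read 13.6, 15.2 and 13.4 CPM, then 19.1, 20.2 and 19.1 CPM, then 12.8, 12.6 and 13.5 CPM in Control, Thrombin and PD03. Like Ntn1 it was highest in Thrombin, by 0.47 (adjusted p = 0.00011, under the fold threshold), and PD03 fell from there by 0.59 on the log2 scale (adjusted p = 1.4e-06). That call sits at the threshold and was lost without Thrombin replicate 2, PD03 replicate 1 or PD03 replicate 2 (-0.572, -0.579 and -0.580).

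Unc5b, the abundant netrin receptor here, read 156, 175 and 173 CPM in Control, 174, 177 and 174 CPM in Thrombin and 162, 165 and 160 CPM in PD03. Its log2 difference was 0.06 (95% interval -0.02 to 0.15) with thrombin and -0.11 (95% interval -0.20 to -0.02) from Thrombin to PD03. Ntn3, Ntn4, a basement membrane netrin, and Ntn5 were not called. In PD03 against Thrombin and then Control, the log2 differences were 0.45 and 0.42 for Ntn3, 0.29 and 0.38 for Ntn4, and 0.39 and -0.24 for Ntn5. Unc5a and Unc5d were not tested.

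Reelin, a large matrix glycoprotein that positions neurons through the receptors Vldlr and Lrp8, had the widest range of the 53. Reln read 4.51, 3.79 and 4.61 CPM in Control, 36.3, 45.2 and 41.6 CPM in Thrombin and 2.12, 2.59 and 4.47 CPM in PD03. Every Thrombin library was above every other, and PD03 overlapped Control in 1 library, PD03 replicate 3. The log2 change with thrombin was 3.25 (95% interval 2.99 to 3.51, adjusted p = 9.5e-24, edgeR). From Thrombin to PD03 it was -3.76 (95% interval -4.04 to -3.48, adjusted p = 2e-25). For PD03 against Control it was -0.51 (adjusted p = 0.03), under the threshold, but past it without PD03 replicate 3 (-0.88), without Control replicate 2 (-0.60) and with library totals (-0.63). The receptors were in the cells: Vldlr averaged 6.70 CPM in Control, 9.29 CPM in Thrombin and 24.4 CPM in PD03, and Lrp8 45.7, 56.2 and 33.3 CPM. Vldlr rose from Thrombin to PD03 by 1.39 (adjusted p = 9.9e-16) where Lrp8 fell by 0.76 on the log2 scale (adjusted p = 2e-13), and both were chosen for mention after their values were seen. Reln overlaps the gene Elobl5 on GRCr8.

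PD03 set against Control shows which guidance genes differed from untreated cells when thrombin and the inhibitor were given together. Sema4b, Sema4f, Sema6a, Plxnc1, Epha7 and Ephb3 were higher and Sema3e and Epha1 lower, and only Plxnc1 among the 8 was also called in Thrombin against Control. Of the 13 genes that thrombin changed, the other 12 were not called between PD03 and Control, with log2 differences between -0.51 and 0.59, though the libraries of Sema3d, Sema3f, Sema7a, Slit3, Robo2 and Ntn1 did not overlap, as was so for 47.8% of all tested genes. This comparison leaned on the scaling: scaled by library totals, the median of all genes was -0.12 and the guidance genes had 3 higher and 5 lower, in place of 6 and 2. Scaled that way, Sema4b, Epha7 and Ephb3 were no longer called (0.55, 0.47 and 0.56).

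Guidance partners and signalling genes outside the symbols above (co-receptors, cytoplasmic effectors and other cues) were taken from a list of 98, of which 94 were in the table and 83 were tested. Thrombin had 3 higher and 8 lower than Control, PD03 14 higher and 6 lower than Thrombin, and PD03 8 higher and 3 lower than Control. Those shares are 13.3%, 24.1% and 13.3% of the 83, beside 8.06%, 15.9% and 8.97% of all genes, and the medians were -0.02, 0.15 and 0.08. With library totals the last 2 splits were 9 higher and 7 lower, and 7 higher and 5 lower. The largest changes with thrombin were in Pappa2 (-1.11, adjusted p = 4e-12), Dpysl3, a collapsin response mediator of growth cones (1.02, adjusted p = 1.6e-22), and Mical2, an actin-oxidizing enzyme (-1.001, adjusted p = 2.5e-07). Pappa2 was on the list but is a protease of IGF-binding proteins, which is none of the kinds named above. From Thrombin to PD03 the largest changes were in Ntng1, the membrane-anchored netrin G1 (2.36, adjusted p = 7.7e-12), Pappa2 again (1.60, adjusted p = 8.3e-18) and the VEGF receptor Kdr (1.42, adjusted p = 0.0014, at 1.88 CPM in PD03). Kdr is also among the endothelial markers read below, where it is 1 of the 2 called higher, so this call appears in both lists.

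Endothelial, nerve and osteoclast-line cells make many of these genes, and lists of their markers were read in the same libraries. Endothelial markers (4 of 7 listed were tested) summed to 9.41 to 9.72 CPM in Control, 8.06 to 10.8 CPM in Thrombin and 13 to 15.3 CPM in PD03, mostly from Tek, and Pecam1 and Tie1 were near 0 (0.259 and 0 CPM in Control). Neuron and Schwann markers (5 of 10 tested) summed to 46.0 to 53.6, 63.8 to 67.9 and 104 to 108 CPM, mostly Tubb3, and Rbfox3 and Snap25 were near 0 (0 and 0.0421 CPM in Control). Macrophage and osteoclast markers (4 of 12 tested) summed to 155 to 163, 131 to 136 and 188 to 196 CPM, mostly Ctsk, and Ptprc was near 0 (0.0392 CPM in Control). All 3 sums were highest in PD03, as were Sema4b, Sema4f, Sema6a, Plxnc1, Epha7 and Ephb3, the genes called higher there than in both other groups. Sema3e and Epha1 were called lower there than in both. From Thrombin to PD03, tested markers called higher and lower were 2 and 0 (endothelial), 2 and 1 (neuron and Schwann), and 1 and 1 (macrophage and osteoclast). The part of other cell types in those results was not tested. The osteoblast list, mostly collagen RNA, was also highest in PD03, at 60720 to 66520, 55830 to 59060 and 95120 to 98260 CPM in Control, Thrombin and PD03.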

How the data were processed

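The authors sequenced messenger RNA in 9 libraries and deposited, for each gene, a raw count and an FPKM value per library; the table lists 19085 genes. Per the paper, reads were trimmed with fastp, aligned with HISAT2 to Rnor_6.0 and counted with featureCounts, whereas the submitters' notes name mRatBN7.2 and HTSeq 0.13.5. The strand setting and the annotation release are not given. A short-assay protocol in the labels writes the PD03 dose in mM, and the design text in µM.

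Raw counts were analysed in R 4.3.3 with edgeR 4.0.16: filterByExpr (minimum count 10, 13256 genes kept), TMM, all 9 libraries in 1 quasi-likelihood fit, Benjamini-Hochberg over all kept genes, adjusted p under 0.05 and absolute log2 fold change above 0.58. Standard errors came from the F statistic. The biological coefficient of variation was 4.28%. Within each group, libraries differed beyond sampling noise (chi-square over its degrees of freedom was 1.82 to 3.99), so none was merged. The deposited FPKM served for levels between genes and as an alternative with limma 3.58.1. DESeq2 1.42.0 was another alternative. The procedure was tested on simulated data. Depth was 15447832 to 19841468 counts per library.

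Genes given by library were those called in any comparison and averaging 1 CPM or more in their highest group, plus members known in bone. Of the partner list, the 3 largest called changes in the first 2 comparisons were named. Results for 1 marker gene are not reported here. The members and lists were chosen with earlier results of these data known. Promoters and overlapping genes came from RefSeq GRCr8 tables, not the build of the counts. Figures were drawn with matplotlib 3.10.9.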

Additional observations from a re-analysis of the deposited data

How the results depend on the processing

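Members called, higher then lower, were 5 and 8 (Thrombin against Control), 14 and 8 (PD03 against Thrombin) and 6 and 2 (PD03 against Control), and those of the partner list 3 and 8, 14 and 6, and 8 and 3. Counts by DESeq2, limma voom, DESeq2 size factors and no filter stayed within 1.5 times of these. Same-numbered libraries did not deviate together (correlations -0.0407 to 0.069), and the replicate block gave the same counts, 5 and 8, 14 and 8, and 6 and 2, and changed no call.

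With library totals, PD03 against Control gave 3 and 5 members and 5 lower partners, and PD03 against Thrombin 9 higher partners. A mean count of at least 50 gave 1 lower member and 5 higher partners for PD03 against Control, where fewer genes are tested. With log2(FPKM + 1), members were 4 lower (Thrombin against Control), 6 and 5 (PD03 against Thrombin) and 1 and 1 (PD03 against Control), and partners 4 lower, 6 higher and 4 higher; adding 1 shrinks low genes. With log2(FPKM + 0.1), members were 3 and 4 (PD03 against Control) and partners 9 higher (PD03 against Thrombin). At a fold threshold of 1, members were 2 and 5, 9 higher, and 1 and 1, and partners 1 and 2, 5 and 0, and 4 and 0. With no fold threshold, members were 10 and 20, 22 and 14, and 15 and 12 (28.7%, 49.8% and 39.9% of all genes pass), and partners 19 and 23, 37 and 19, and 29 and 15.

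Without 1 library, members lower in PD03 than in Control ranged from 2 to 4 (4 without Control replicate 2 or PD03 replicate 3). The sign turned only for values that were not called. For Efnb2 with thrombin it was 0.00321 (size factors), 0.00283 (DESeq2) and 0.00303 (no filter), and -0.0512 to 0.0821 with a library left out. For PD03 against Control, library totals, log2(FPKM + 1) and log2(FPKM + 0.1) gave Efnb1 -0.108, -0.105 and -0.108, Ephb4 -0.0330, -0.0346 and -0.0356, Plxna1 -0.0421, -0.0394 and -0.0417, Plxnb1 -0.0338, -0.0164 and -0.0295, and Robo1 -0.0249, -0.0168 and -0.0214. Efna2 against Thrombin gave -0.0749, -0.0608 and -0.0980, and Efnb1 with no filter -0.000926. With a library left out, PD03 against Control ran from -0.0022 to 0.155 for Robo1, -0.110 to 0.0619 for Sema3g and -0.00796 to 0.0197 for Efnb1, Ephb3 with thrombin from -0.0886 to 0.116, and Efna2 in PD03 against Thrombin from -0.0803 to 0.160. The causes were not tested. Genes under 10 counts in a library are limited by depth.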
